A study of Tuber borchii with 4 samples.

Results

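Mycelium of *T. borchii* SP1 grown in maltose-peptone medium (MPY) was set against mycelium grown in potato dextrose broth (PDB), over all 12346 gene models of the Tubbor1 assembly. These are 2 of the 4 libraries of the series, chosen by the growth medium on their labels. *T. borchii* is the bianchetto truffle, an ascomycete that forms ectomycorrhizae with tree roots, and SP1 is a mycelial strain isolated from a truffle. MPY contained maltose at 35 g/L, peptone and yeast extract at 5 g/L each, magnesium sulfate at 0.5 g/L, potassium sulfate at 1 g/L and myoinositol at 0.05 g/L. PDB contained potato dextrose broth at 20 g/L. Both cultures were of the same strain, static, dark, liquid and axenic, at 22 °C, and the labels give a harvest at day 85 for both. The column of counts names day 83 for MPY and day 85 for PDB. Each medium had 1 library, so the spread between cultures is unknown and no p-values are printed.

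Maltose is a disaccharide of glucose that fungi split outside the cell or take up through a permease before it enters glycolysis. Peptone and yeast extract bring amino acids, peptides, vitamins and nucleotides, whereas potato dextrose broth is mainly potato extract and glucose. Fungi adjust transporters, secreted enzymes and the enzymes of amino acid and secondary metabolism to the carbon and nitrogen on offer, while ribosomes, the proteasome and the respiratory chain are needed in any medium. The 2 media differ in sugar, nitrogen source, salts and vitamins at once, so the effects of these components cannot be told apart here.

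The MPY library held 47969567 counts and the PDB library 157335190. Levels are counts per 1000000 counts of the same library (CPM), so that 1 count was worth 0.0208 CPM in MPY and 0.00636 CPM in PDB. CPM is not corrected for gene length, and a value is therefore compared between the 2 libraries for the same gene model. Ratios are given as log2 of (CPM + 1) in MPY over (CPM + 1) in PDB, which understates the difference of low genes, and fold values are plain ratios of CPM. Intervals are exact 95% Clopper-Pearson intervals, and they cover counting error only. In bulk RNA, fewer hyphae of a kind and less RNA per hypha cannot be told apart. The Woronin body major protein (protein ID 1060281, which KOG lists as translation initiation factor 5A) belongs to the septal pore plugs of filamentous ascomycetes. It had 2291 CPM in MPY and 3919 CPM in PDB, and no other marker of mycelium was examined.

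Of the 12346 models, 8430 reached 1 CPM in at least 1 library, and these are the measured models. In MPY 706 of them were at least 2-fold higher (8.37%) and 753 were at least 2-fold lower (8.93%) than in PDB, so that 1459 (17.3%) lay at least 2-fold apart. At least 4-fold apart lay 349 models (4.14%), of which 191 were higher in MPY (2.27%) and 158 lower (1.87%). At least 8-fold apart lay 77 models higher in MPY (0.913%) and 42 lower (0.498%). The bulk of the models differed little: the median log2 ratio was -0.07, the quartiles were -0.51 and 0.39, and 5% of the models lay below -1.33 and 5% above 1.35. Of the 100 models with most counts in MPY, 43 were also among the 100 of PDB, 42 were at least 2-fold higher in MPY, and 13 ranked below 1000 in PDB. Of the 100 models with most counts in PDB, 41 were at least 2-fold lower in MPY and 11 ranked below 1000 there.

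**Figure D1:**
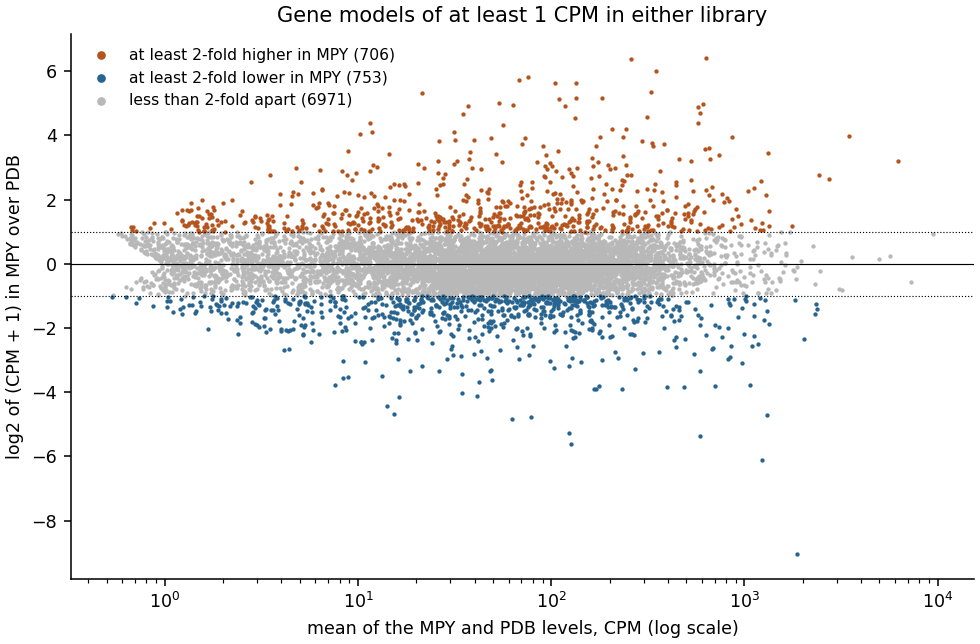
Each point is a gene model of at least 1 CPM in either library, with the mean of its MPY and PDB levels in CPM (log scale) against the log2 ratio of MPY over PDB. The 706 models at least 2-fold higher in MPY and the 753 at least 2-fold lower lie at low, middle and high levels, and dotted lines mark the 2-fold limit.

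The share of models past 2-fold depended on the level. The measured models were split into 10 equal groups by mean level. Among the group with the highest mean, from 263 CPM up, 14.1% were at least 2-fold higher in MPY and 11.9% at least 2-fold lower. In the middle groups, between 36.5 and 75.5 CPM, 13.4% lay at least 2-fold apart in either direction. In the next to lowest group, from 3.18 to 10.8 CPM, the share was 23.5%. In the lowest group, from 0.531 to 3.18 CPM, where the log2 ratio understates differences most, it was 15.8%. By the span of the gene model on the assembly, introns included, the shares differed less. Past 2-fold lay 17.1% of the shortest group of 5 (150 to 882 bp) and 14.9% of the longest (2464 bp and more), and the medians of the 5 groups lay between -0.14 and 0.03 on the log2 scale.

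The largest single contrast in the data was that of protein ID 1103054, which has no description at hand (sequence 242 of the Tubbor1 assembly, positions 62777 to 63475). It had 295 counts in MPY and 589989 in PDB, that is 6.15 CPM in MPY and 3750 CPM in PDB. The difference was 610-fold lower in MPY (interval 544 to 686), and the log2 ratio was -9.04. The model held rank 7122 in MPY and rank 7 in PDB. The models on either side, 995570 and 1103055, had log2 ratios of -0.46 and -0.24, so that the contrast did not extend to its neighbours. On the same sequence, protein ID 1131693 (110822 to 111127) stood at the other end, with 2040 counts in MPY and 15 in PDB. It had 42.5 CPM in MPY and 0.0953 CPM in PDB, 446-fold higher in MPY with a wide interval of 270 to 798 from the 15 counts.

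Protein ID 1064615 had the highest log2 ratio of all models with at least 10 CPM in 1 library. It is annotated only as a protein with a DUF4449 domain of unknown function (sequence 102, 182481 to 185361). Its level was 1244 CPM in MPY and 13.8 CPM in PDB, 90.3-fold higher in MPY (interval 86.6 to 94.3). Protein ID 986569 (sequence 150, 139331 to 139680) followed with 512 CPM in MPY and 5.14 CPM in PDB, 99.6-fold higher. A described cell surface protein, 982518, had 264 CPM in MPY and 4.32 CPM in PDB, 61.2-fold higher (interval 56.6 to 66.2). Protein IDs 1061269 and 1061987, without a description, had 1188 and 643 CPM in MPY, against 36.9 and 14.8 CPM in PDB. The other 9 models among the 15 highest ratios (1009449, 1097124, 752006, 1071612, 988158, 1094720, 1082235, 1106044 and 1108898) had 105 to 690 CPM in MPY and 1.54 to 9.70 CPM in PDB, and 1131693 is given above. None of the 15 had over 37 CPM in PDB, and all but 1131693 had over 100 CPM in MPY.

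At the other end, protein ID 1126885 had 34.3 CPM in MPY and 2435 CPM in PDB, 71.1-fold lower in MPY (interval 67.7 to 74.6). Protein ID 1130570 had 27.0 CPM in MPY and 1146 CPM in PDB, 42.5-fold lower. Protein ID 1095732 had 95.1 CPM in MPY and 2513 CPM in PDB, 26.4-fold lower (interval 25.7 to 27.2). These 3 models and 1103054 were among the 100 with most counts in PDB and ranked between 2671 and 7122 in MPY. Several models of moderate level in PDB came close to absence in MPY. Protein ID 993248 had 11 counts (0.229 CPM) in MPY and 30.2 CPM in PDB, 132-fold lower with an interval of 73.6 to 264. Protein ID 1077074 had 17 counts (0.354 CPM) in MPY and 27.9 CPM in PDB, 78.8-fold lower (interval 49.2 to 135). Protein IDs 986925, 1079935 and 979104 were 21.0-, 15.6- and 15.4-fold lower in MPY, and the rest of the 15 lowest ratios are given below with their neighbours. None of the 15 models with the lowest ratios had a description at hand, but only 459 of the 12346 models had one.

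**Figure D2:**
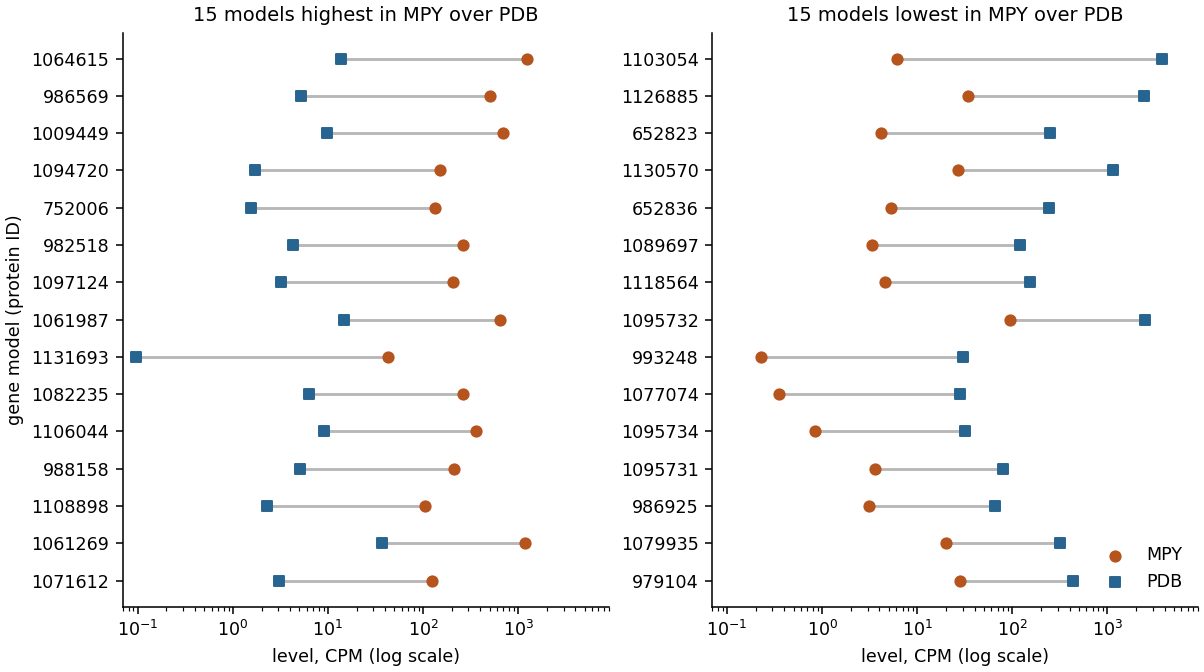
Levels in CPM (log scale) of the 15 gene models with the highest and the 15 with the lowest log2 ratio of MPY over PDB, among models of at least 10 CPM in 1 library. Circles are the MPY library and squares the PDB library, and 1103054 spans the widest distance, with 6.15 CPM in MPY and 3750 CPM in PDB.

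Few models had counts in 1 library and none in the other at a level that would be seen. No count was found in MPY for 2011 models, of which 527 had a count in PDB but only 1 reached 1 CPM there. This was 716597, with 167 counts (1.06 CPM) in PDB, and 3 counts, the limit that a count of 0 allows, would be 0.0625 CPM in MPY. Set against that limit, it was 17.0-fold lower in MPY, without the counting error of the 167 counts. No count was found in PDB for 1741 models, of which 257 had a count in MPY and 1 reached 1 CPM. This was 1112947, with 131 counts (2.73 CPM) in MPY against a limit of 0.0191 CPM in PDB. Set against that limit, it was 143-fold higher in MPY, without the counting error of the 131 counts. The 2 models were chosen for this description after their values were seen. The contrast between the media was thus made almost wholly by genes with counts in both libraries.

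Differences in CPM show where the reads went. The levels of 5088 models were higher in MPY and those of 5774 were lower, and the gains summed to 23.5% of all counts, with the losses equal to them by construction. Models at least 2-fold higher in MPY held 18.5% of the counts in MPY and 4.82% in PDB. Models at least 2-fold lower in MPY held 5.04% of the counts in MPY and 16.8% in PDB. The 10 models with the largest gains made up 16.3% of all gains, and the 10 with the largest losses made up 10.3% of all losses. To reach 50% took 135 models among the gains and 199 among the losses, so that the gain in MPY rested on fewer models than the loss.

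**Figure D3:**
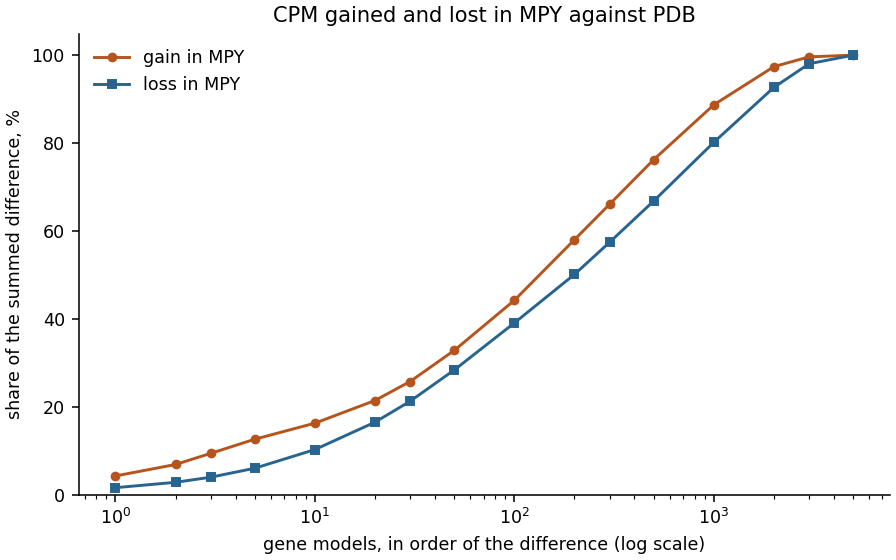
Cumulative share of the summed CPM difference (%) against the number of gene models, in order of the size of their difference (log scale). The gains in MPY (circles) lie above the losses in MPY (squares): the first 100 models hold 44.2% of the gains and 39.1% of the losses.

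The 10 largest gains, which made up 16.3% of all gains, were those of models with high counts in MPY. Protein ID 1004448 had 11218 CPM in MPY and 1209 CPM in PDB, 9.28-fold higher (interval 9.23 to 9.33), and took 1.12% of all counts in MPY. It held rank 2 in MPY and rank 77 in PDB. Protein ID 980014 had 6539 CPM in MPY and 412 CPM in PDB, 15.9-fold higher, at rank 3 in MPY and rank 407 in PDB. Protein ID 1041746 had 12453 CPM in MPY and 6507 CPM in PDB. Its log2 ratio of 0.94 stayed under the 2-fold limit, but it held rank 1 in MPY and rank 2 in PDB and so made the third largest gain. Protein IDs 1102148, 1023977 and 783924 had 4720, 4247 and 2411 CPM in MPY, against 761, 630 and 222 CPM in PDB. Protein ID 1191020 had 1622 CPM in MPY and 104 CPM in PDB, 15.6-fold higher, at rank 39 in MPY and rank 2630 in PDB. Protein IDs 1072663, 1090294 and 1091870 had 2101, 2083 and 1873 CPM in MPY, against 474, 350 and 367 CPM in PDB. No description was at hand for any of the 10 largest gains, as for most of the 12346 models. Other models high in both media differed little: 1071111, 1079490 and 1136110 had 6159, 5213 and 3857 CPM in MPY, against 5205, 4740 and 3329 CPM in PDB.

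The largest losses were those of 1103054 and 1067414. Protein ID 1067414 had 5846 CPM in MPY and 8711 CPM in PDB, a log2 ratio of -0.58, and was the highest model of PDB. Protein ID 90165 had 666 CPM in MPY and 3388 CPM in PDB, 5.09-fold lower in MPY (interval 5.03 to 5.15). Protein ID 1035371 had 146 CPM in MPY and 2001 CPM in PDB, 13.7-fold lower. Protein IDs 1090643, 975524 (which overlaps a neighbour) and 1068511 were 2.99-, 2.67- and 2.36-fold lower in MPY, and each still had over 1000 CPM there. The last of the 10 largest losses was alcohol dehydrogenase 1133725, the enzyme that interconverts acetaldehyde and ethanol, with 2335 CPM in MPY and 4088 CPM in PDB and a log2 ratio of -0.81.

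Descriptions from KOG and eggNOG were at hand for 459 models, within 827 models on 21 sequences of the assembly, so the lists below cover a small share of the genome. Of the 376 described models that were measured, 21 were at least 2-fold higher in MPY and 28 at least 2-fold lower, that is 13.0% apart. Of the 190 measured models on these sequences without a description, 20 were higher and 24 lower, 23.2% apart. Described models had a higher level, with a median of 70.0 CPM against 22.1 CPM for the others. Among models with a mean of at least 10 CPM the shares were 12.9% of 341 described models and 24.0% of 121 without a description. Over both kinds the share was 15.8% of 462, beside 17.3% of all measured models, which start at 1 CPM.

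**Figure D4:**
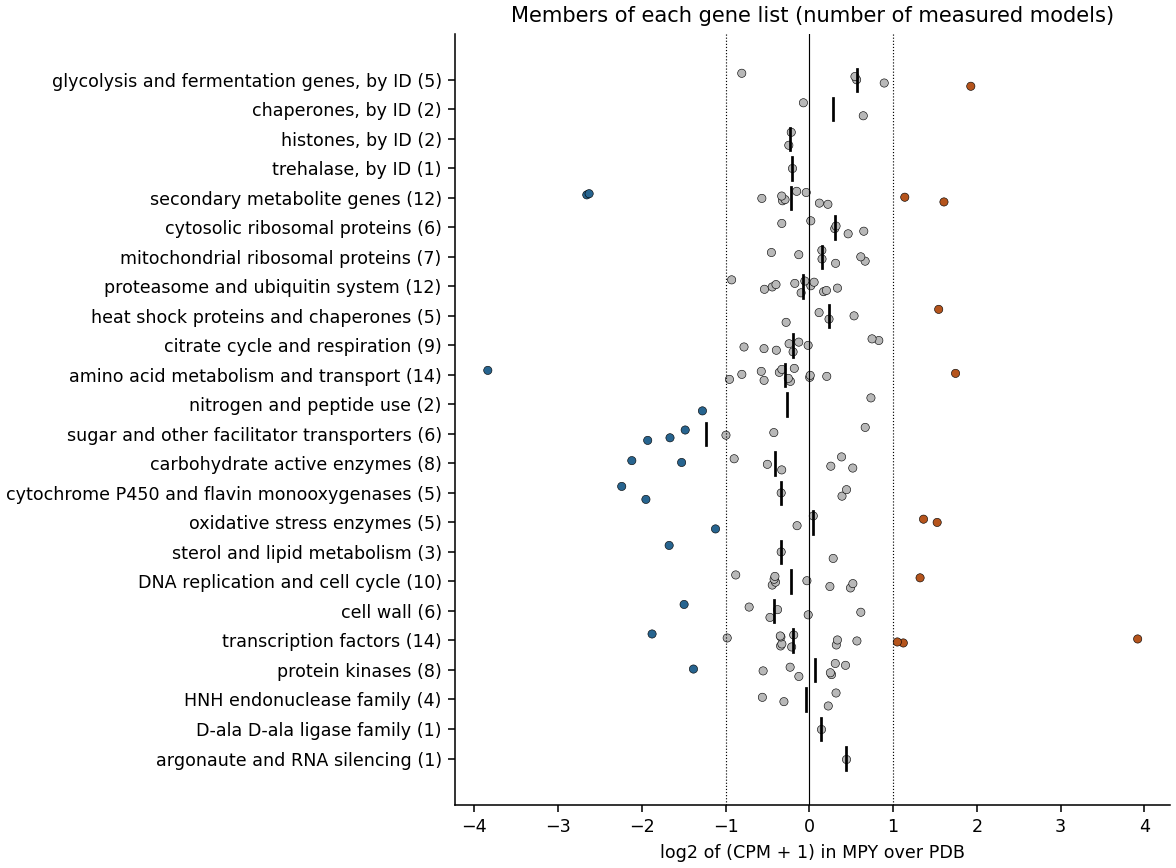
Log2 ratio of MPY over PDB for the measured members of each gene list, with a point for each gene model and a vertical bar for the list's median. Dotted lines mark the 2-fold limit, colored points lie beyond it, and the facilitator transporters have the lowest median, -1.24. Of these transporters 2 models overlap each other.

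The counts of each list below stand beside the shares of all measured models past 2-fold, 8.37% higher and 8.93% lower in MPY, and most lists are too short for their counts to be set apart from these. Of the 6 measured transporters of the major facilitator superfamily, which carry sugars, drugs and other small molecules across membranes, 3 were at least 2-fold lower in MPY, beside 8.93% of all measured models, and none higher. Their median log2 ratio was -1.24, beside -0.07 for all measured models. Protein ID 982620 had 37.5 CPM in MPY and 107 CPM in PDB, and 1101152 had 10.1 CPM in MPY and 41.1 CPM in PDB. The third, 1083157, had 3.36 CPM in MPY and 12.8 CPM in PDB. The descriptions do not name the substrate of these 3. A further member, 1119157, had 79.5 CPM in MPY and 160 CPM in PDB, just under the limit. The 2 models 1101152 and 1083157 share a KOG description and overlap each other on sequence 105. The 3 lower models are therefore not 3 separate places on the assembly.

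Among 8 measured carbohydrate-active enzymes 2 were at least 2-fold lower in MPY, beside 8.93% of all measured models, and none higher, with a median of -0.42. Alpha-amylase 1114851, which cuts the alpha-1,4 bonds of starch, had 43.4 CPM in MPY and 192 CPM in PDB, 4.43-fold lower in MPY (interval 4.23 to 4.63). A glycosyl hydrolase of family 3, 1038904, had 25 counts (0.521 CPM) in MPY and 3.38 CPM in PDB. Its log2 ratio was -1.53 with the pseudocount of 1 and -0.60 with a pseudocount of 5, under the limit. An alpha-L-rhamnosidase, 982928, which releases rhamnose from plant glycosides, had 296 CPM in MPY and 554 CPM in PDB and did not pass the limit. The mannosidases of this list, which trim glycan chains, did not pass it either: 980985 had 377 CPM in MPY and 316 CPM in PDB, and 1140433 had 44.1 CPM in MPY and 30.5 CPM in PDB. Protein ID 1126612, described as sorbitol dehydrogenase, an oxidoreductase of polyols, is not in this list and was chosen after its values were seen. It had 25.1 CPM in MPY and 5.63 CPM in PDB, 4.46-fold higher. Over the KOG class of carbohydrate transport and metabolism, 1 of 9 measured models was at least 2-fold higher in MPY (1192929, a predicted dehydrogenase) and 2 were lower (982620 and 1114851). The trehalase gene 1130405, whose product splits the storage sugar trehalose, had 132 CPM in MPY and 153 CPM in PDB.

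Of the 5 glycolysis and fermentation genes known by protein ID, 1 passed 2-fold, beside 17.3% of all measured models. Phosphoglycerate kinase 1077976, which makes ATP in the lower part of glycolysis, had 1238 CPM in MPY and 325 CPM in PDB, 3.81-fold higher (interval 3.77 to 3.86). Phosphofructokinase 1092436 had 462 CPM in MPY and 248 CPM in PDB, with a log2 ratio of 0.89. The models 1079835 and 957843, which hold the catalytic and the NAD-binding domain of glyceraldehyde-3-phosphate dehydrogenase, had log2 ratios of 0.56 and 0.54. The remaining member, alcohol dehydrogenase 1133725 of the losses above, went the other way, with a log2 ratio of -0.81. Models 1079835 and 957843 overlap each other on sequence 69, so their ratios are not 2 independent values. Model 1077976 overlaps a neighbour too, and reads in such overlaps may have been counted for either model or for none.

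The citrate cycle and respiration genes did not pass 2-fold in either direction (0 of 9, median -0.19), beside 17.3% of all measured models, a share at which few of 9 would pass. Alternative oxidase 1101071, which passes electrons from ubiquinol to oxygen without pumping protons, had 416 CPM in MPY and 716 CPM in PDB. The NAD-dependent isocitrate dehydrogenase subunit 1125653 had 184 CPM in MPY and 268 CPM in PDB. Fumarate reductase 1101272 had 997 CPM in MPY and 593 CPM in PDB, and the NADH dehydrogenase 963532 had 125 CPM in MPY and 70.1 CPM in PDB. Glycerol-3-phosphate dehydrogenase 1064681, the FAD enzyme that feeds electrons of glycerol 3-phosphate to ubiquinone, is not in that list either and was likewise chosen after its values were seen. It was 2.20-fold lower, with 63.3 CPM in MPY and 139 CPM in PDB.

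Of 14 measured genes of amino acid metabolism and transport, 1 was at least 2-fold higher in MPY and 1 lower. These are 14.3% of the list, beside 17.3% of all measured models and 13.0% of the described ones, and the median of the list was -0.29. Alanine aminotransferase 963452, which exchanges the amino group between alanine and 2-oxoglutarate, had 51.0 CPM in MPY and 744 CPM in PDB. It was 14.6-fold lower in MPY (interval 14.0 to 15.2), with a log2 ratio of -3.84. Homoserine O-acetyltransferase 1125986, an enzyme of methionine synthesis in fungi, had 122 CPM in MPY and 35.7 CPM in PDB, 3.42-fold higher (interval 3.30 to 3.55). Aspartate aminotransferase 1101039 had 653 CPM in MPY and 651 CPM in PDB. Arginase 1082990, which splits arginine into ornithine and urea, had 798 CPM in MPY and 792 CPM in PDB. The model annotated as glutamine synthetase, 1070290, had 8.42 CPM in MPY and 17.3 CPM in PDB, with a log2 ratio of -0.95, and the 3 amino acid transporter models had log2 ratios between -0.57 and -0.36. The bleomycin hydrolase 960832, a cysteine aminopeptidase, had 77.4 CPM in MPY and 189 CPM in PDB, 2.44-fold lower.

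None of 6 measured cytosolic ribosomal proteins and none of 7 mitochondrial ribosomal proteins passed 2-fold, with medians of 0.31 and 0.15. The share of described models past 2-fold was 13.0%, so that few of so short lists would pass in any case. The cytosolic members ranged from -0.33 (60S protein L15, 1083004) to 0.65 (40S protein S23, 1037379), and 5 of the 6 lay above 0. Over all models, 5088 were higher in MPY and 5774 lower. Together the 6 cytosolic members held 0.265% of the counts in MPY and 0.211% in PDB. The fusion of a ubiquitin-like protein and 40S protein S30, 981122, is in this list and in the next. The 12 measured members of the proteasome and ubiquitin system had a median of -0.08, and none passed 2-fold. The lowest was the 20S proteasome subunit 1083910, with 69.1 CPM in MPY and 132 CPM in PDB. The histone models 961630 and 1124376 had log2 ratios of -0.25 and -0.22.

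Among chaperones the p23 co-chaperone of HSP90, 982618, which stabilizes the closed form of HSP90, was alone past 2-fold. It had 806 CPM in MPY and 276 CPM in PDB, 2.92-fold higher (interval 2.88 to 2.96). It made up 20% of the 5 measured members of its list, beside 17.3% of all measured models. The other 4 measured members of the list of heat shock proteins and chaperones had log2 ratios between -0.28 and 0.53. The small heat shock protein 990338 had 1139 CPM in MPY and 729 CPM in PDB, and the chaperone 1039918 had 152 CPM in MPY and 160 CPM in PDB.

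Of 14 measured transcription factors 3 were at least 2-fold higher in MPY, beside 8.37% of all measured models, and 1 was lower, beside 8.93%, with a median of -0.20. Protein ID 981019, with a fungal-specific transcription factor domain, had 92.7 CPM in MPY and 5.19 CPM in PDB, 17.9-fold higher (interval 16.6 to 19.3). The bZIP factor 896787 had 572 CPM in MPY and 2105 CPM in PDB, 3.68-fold lower (interval 3.64 to 3.73). The other 2 past the limit, 903908 and 1098183, were 2.21- and 2.10-fold higher in MPY, and these 2 models overlap each other on sequence 1. The target genes of these factors are not described. Of 8 measured protein kinases 1 passed, beside 17.3% of all measured models. It was the checkpoint-like kinase 981235, with 144 CPM in MPY and 379 CPM in PDB.

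In the stress and redox group the described models went both ways. Of 5 measured oxidative stress enzymes, 2 were at least 2-fold higher in MPY and 1 lower. The shares of all measured models were 8.37% and 8.93%. The glyoxalase and bleomycin resistance family protein 981017 had 803 CPM in MPY and 1748 CPM in PDB, 2.18-fold lower. The 2 copper/zinc superoxide dismutase models 1083220 and 1083259 are of enzymes that convert superoxide to hydrogen peroxide. They were higher at low levels, with 5.50 and 2.21 CPM in MPY, against 1.26 and 0.248 CPM in PDB. With a pseudocount of 5, neither passed the 2-fold limit. The peroxidase family model 64849 had 611 CPM in MPY and 592 CPM in PDB. Protein ID 1114726, described as the epimerase that repairs damaged NAD(P)H, had 220 CPM in MPY and 27.5 CPM in PDB, 7.99-fold higher (interval 7.71 to 8.28). The NAD-dependent epimerase/dehydratase 1192929, the one of the carbohydrate class above, had 159 CPM in MPY and 23.1 CPM in PDB, 6.91-fold higher. These 2 are not in a list and were chosen after their values were seen.

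Several other described models past 2-fold belong to no list and were also chosen after their values were seen. The ribonuclease of the T2 family 1192971, a class of mostly secreted or vacuolar RNA-degrading enzymes, had 63 counts (1.31 CPM) in MPY and 25.3 CPM in PDB, 19.3-fold lower. Protein ID 1070349, annotated as a parasitic phase-specific protein, had 582 CPM in MPY and 1953 CPM in PDB, 3.35-fold lower. The oxidoreductase of the glucose-methanol-choline family 1126194 had 29.6 CPM in MPY and 94.4 CPM in PDB, 3.19-fold lower. On the higher side, 1013859 is a phosphatidylethanolamine-binding protein likened to TFS1, which in *Saccharomyces cerevisiae* inhibits carboxypeptidase Y. It had 136 CPM in MPY and 22.2 CPM in PDB, 6.12-fold higher (interval 5.87 to 6.37). The RING finger protein 1070238 had 310 CPM in MPY and 80.0 CPM in PDB, 3.87-fold higher. GTP cyclohydrolase I 1082625, the first enzyme of pterin synthesis, had 8.05 CPM in MPY and 17.4 CPM in PDB, close to the limit at 2.16-fold lower.

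Among the monooxygenases, 2 of 5 measured models were at least 2-fold lower in MPY, beside 8.93% of all measured models, and none higher. The cytochrome P450 1101102 had 20.3 CPM in MPY and 81.5 CPM in PDB, and the flavoprotein 1119190, of the family of kynurenine 3-monooxygenase, had 10.2 CPM in MPY and 51.9 CPM in PDB. In the lists of cell wall genes and of sterol and lipid genes, 1 of 6 and 1 of 3 measured models were lower, beside the same 8.93%. The first was the cell wall biogenesis protein 1126546, with 14.1 CPM in MPY and 41.7 CPM in PDB. The other was 1072550, with 9.01 CPM in MPY and 31.0 CPM in PDB. KOG describes 1072550 as an enoyl-CoA hydratase of its lipid class, and eggNOG as a methylglutaconyl-CoA hydratase. In the list of DNA replication and cell cycle genes 1 of 10 passed, beside 17.3% of all measured models. It was the subunit 1072553 of the anaphase-promoting complex, the ubiquitin ligase of mitotic exit, with 180 CPM in MPY and 71.3 CPM in PDB. Another regulator of that complex, the Cdc20-like 1083813, had 46.2 CPM in MPY and 85.9 CPM in PDB. The HNH endonuclease, D-ala D-ala ligase and argonaute families were mostly silent in both media: 4 of 15, 1 of 10 and 1 of 4 models reached 1 CPM, and none passed 2-fold.

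Secondary metabolite genes, which encode polyketide synthases (PKS) and nonribosomal peptide synthetases (NRPS), held 0.0672% of the counts in MPY and 0.264% in PDB. Of 12 measured models of 13, 2 were at least 2-fold higher in MPY, beside 8.37% of all measured models, and 2 lower, beside 8.93%. The PKS-like models 1121687 and 970716 are adjacent on sequence 39, 913 bp apart. They had 184 and 189 CPM in MPY, against 1169 and 1178 CPM in PDB, 6.34- and 6.22-fold lower in MPY. These 2 models held 0.0374% of the counts in MPY and 0.235% in PDB, and the other 11 held 0.0299% in MPY and 0.0296% in PDB. The next 2 PKS-like models of the same sequence, 1076327 and 970641, had log2 ratios of -0.04 and -0.15. The NRPS 1122331 had 31.2 CPM in MPY and 9.57 CPM in PDB, 3.26-fold higher (interval 3.03 to 3.50), and the NRPS-like 1032817 had 25.4 CPM in MPY and 11.0 CPM in PDB, 2.31-fold higher. The NRPS models 1077522 and 1099828, on the same sequence 47 as 1122331, had log2 ratios of 0.22 and 0.12.

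Models that differed strongly tended to have neighbours that differed the same way. Of 6794 adjacent pairs in which both models were measured, the first was at least 2-fold lower in MPY in 581, and in 153 of these (26.3%) the second was so too, beside 8.93% of all measured models. For models higher in MPY this held in 112 of 516 pairs (21.7%), beside 8.37%. Without the 1140 models that overlap a neighbour, the shares were 25.7% for lower and 20.8% for higher models. At the 4-fold limit there were 37 runs of at least 2 consecutive models in the same direction, 14 higher in MPY and 23 lower, and 6 runs of at least 3. The runs named here were chosen by their length or by the size of their ratios, after their values were seen.

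On sequence 410 the models 1095731, 1095732 and 1095734 lay within 33325 to 38318. They had 3.61, 95.1 and 0.834 CPM in MPY, against 78.8, 2513 and 31.8 CPM in PDB, with log2 ratios of -4.12, -4.71 and -4.16. The next 2 models, 1095739 and 574963, were also at least 2-fold lower, with 199 and 18.9 CPM in MPY, against 456 and 78.5 CPM in PDB, which made a run of 5 at the 2-fold limit. On sequence 216 the models 1089697, 993248 and 993210 had log2 ratios of -4.83, -4.67 and -2.24. On sequence 6 the models 1118564, 1038174 and 1071366 had 4.61, 6.57 and 26.2 CPM in MPY, against 153, 92.2 and 115 CPM in PDB. On sequence 247 the models 995890, 927240 and 995887 had log2 ratios between -2.69 and -2.02. These 4 runs lower in MPY held no overlapping models. A pair on sequence 50, 652823 and 652836, lay 8358 bp apart and had 4.13 and 5.34 CPM in MPY, against 249 and 242 CPM in PDB.

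The runs higher in MPY included overlapping models. On sequence 7 the models 1071610, 752006 and 1071612 had 23.3, 135 and 123 CPM in MPY, against 0.407, 1.54 and 3.07 CPM in PDB, and the first 2 overlap by 387 bp. On sequence 322 the models 1001718, 483769 and 1093643 had log2 ratios of 2.82, 2.68 and 2.33, and the first 2 overlap by 22 bp. The pair 1009449 and 1097124 on sequence 517 had 690 and 206 CPM in MPY, against 9.70 and 3.22 CPM in PDB, and overlaps by 61 bp. The pair on sequence 423 held no overlap: 1197186 and 1006445 had 1154 and 1138 CPM in MPY, against 96.4 and 42.8 CPM in PDB, and lay 2119 bp apart. Without the overlapping models the 6 runs of at least 3 were 4, all of them lower in MPY. At the 2-fold limit the longest run was 6 models on sequence 139, all lower in MPY and all at low levels, from 0.667 to 9.17 CPM in MPY and from 4.06 to 28.8 CPM in PDB. The strand setting of the counting is not given in the sources used here, and its part in the overlapping models was not tested.

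**Figure D5:**
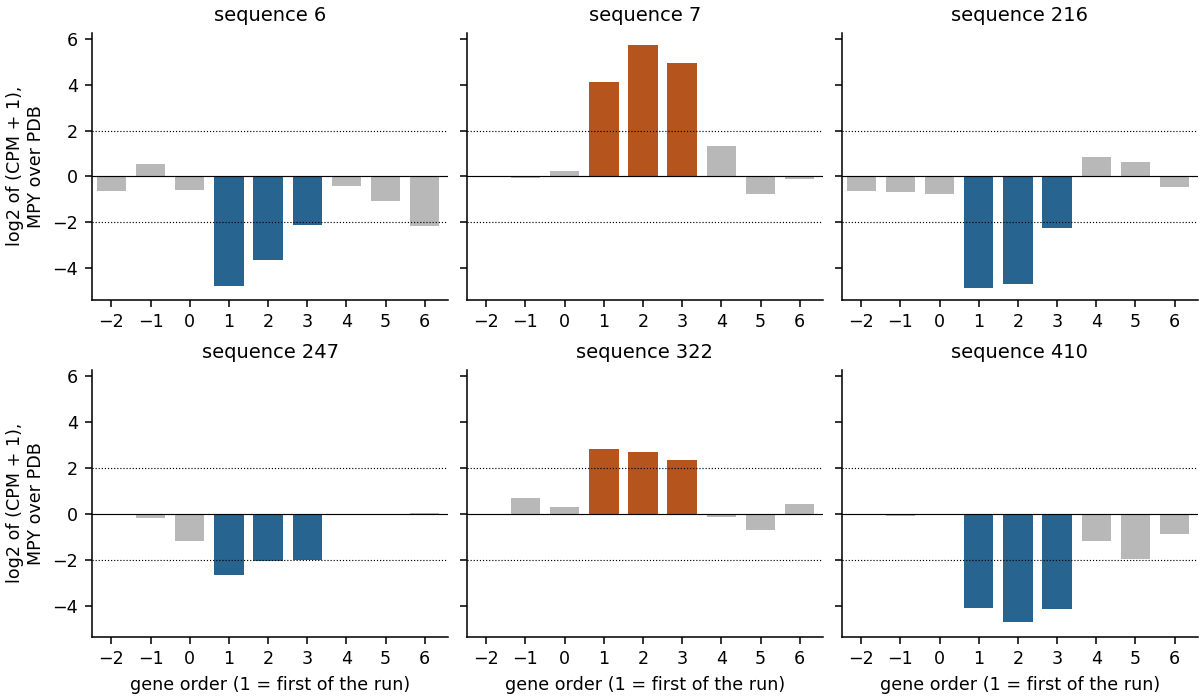
Log2 ratio of MPY over PDB (bars) for the 6 runs of at least 3 consecutive gene models at least 4-fold apart in the same direction, with up to 3 models on either side in gray. The horizontal axis is gene order, with 1 for the first model of the run, and dotted lines mark the 4-fold limit; 4 runs lie below 0 and 2 above.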

How the data were processed

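The authors extracted RNA from mycelium, built polyadenylated RNA libraries and sequenced read pairs. They trimmed the reads with Trimmomatic after FastQC, mapped them with STAR to the Tubbor1 genome and assigned them to gene models with featureCounts. The deposited values are whole-number counts per gene model, not normalized for depth or length. Strand and multi-mapping settings are not given in the sources used here. The totals were 47969567 in MPY and 157335190 in PDB. Counts were scaled to CPM, and log2 ratios used a pseudocount of 1 among models of at least 1 CPM in either library. Positions, known for 12345 models, were taken from a RefSeq table of that assembly, and descriptions from the study's supplementary annotation, held only in part. From the 21 lists made by matching descriptions, 17 matches that named another kind of gene were left out.

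The text names the 15 highest and 15 lowest log2 ratios among models of at least 10 CPM, the 10 largest gains and losses in CPM, the 10 highest models of each library, list members with large ratios or high levels and, where it says so, models chosen later. The members and lists were chosen with earlier results of these data known. Alternatives were other pseudocounts, filters and scalings (TMM in edgeR, median-of-ratios), removal of the highest genes, thinning of PDB to the depth of MPY and, chosen after seeing the data, removal of overlapping models. The fold rule was tested on simulated data that held counting error only and no spread between cultures. The columns of WPG and WPGY were not used here.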

Additional observations from a re-analysis of the deposited data

How the results depend on the processing

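With 1 library per medium, the spread between cultures is unknown, and depth limits only the low models: 3 counts equal 0.0625 CPM in MPY and 0.0191 CPM in PDB. The number of models at least 2-fold apart ranged between 1078 (pseudocount 5) and 1767 (pseudocount 0.1), around the 1459 reported, and thinning PDB to the depth of MPY gave 1471. The split of higher and lower models was 743 and 712 with median-of-ratios scaling and 734 and 724 with TMM, which moved the median of all models by 0.03, so that the excess of lower over higher models reversed. The share of counts that moved was 23.5%, 24.5% with length-scaled counts and 22.4% without the 10 highest genes of each library. The 6 runs of neighbours became 49 at the 2-fold limit, 37 with runs of at least 2 genes and 4 without overlapping models. Of the 171 models past 2-fold taken in by the naming rule, the lists and the runs, 170 stayed past it with TMM or median-of-ratios scaling, 171 with a pseudocount of 0.1 and 155 with a pseudocount of 5, and none changed sign. The number of list members past 2-fold stayed within 1.5 times in all 24 lists under both scalings, and left that range in 2 lists under each other pseudocount. Lists with no member past 2-fold in either setting were counted as within the range, and the other lists had few such members, so this measure is coarse. No paired analysis was possible because each medium has a single library.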
